A study of Mus musculus with 2 samples.

Results

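Myb peaks inside exons and at the 3′ ends of genes were examined in a ChIP-Seq experiment on WT lineage-negative (Lin–) bone marrow cells. Of the 25793 peaks called for the Myb library, 472 (1.83%) had a summit more than 3 kb from every annotated transcript start and inside an annotated exon. They made up 4.31% of the 10948 summits that lay more than 3 kb from a start (95% interval, 3.94%–4.71%). Coding sequence held 94 of the 472 summits, 3′ UTRs held 234, and exons without coding or UTR sequence, called noncoding exons below, held 140. The last 4 summits lay in 5′ UTRs alone.

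The experiment had 1 Myb precipitate and 1 precipitate with normal rabbit IgG, each from Lin– cells with a purity above 80%. The labels give the genotype as WT for both, and no agent or engineered allele for either. In the paper's methods, mice called WT carried conditional (floxed) alleles of Ep300, the gene of p300, and were injected with poly(I:C). Those methods do not state separately whether this held for the mice of these libraries. Lin– cells are what remains of bone marrow after cells with markers of mature blood lineages are removed, so that stem and progenitor cells (HSPCs) are enriched but not pure. A peak list holds no expression values with which the cell label could be checked. With 1 library of each kind there was no replicate. The values describe this Myb library, and all intervals cover counting error over peaks, bases or reads only.

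Myb is a transcription factor of blood progenitors that binds short DNA sites built on the letters AAC and works with the coactivators p300 and CBP. ChIP-Seq recovers DNA fragments near the bound protein, so a peak in an exon is a signal on the DNA of that exon and not on its RNA. Coding exons carry codons and are short in most mouse genes, whereas the 3′ UTR is usually 1 long last exon that in RNA carries sites for microRNAs and the signal for polyadenylation. Gene ends can lie close to the start of the next gene, and enhancers can lie inside genes, including their exons.

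The sequences that follow show how a Myb motif sat beside the summit in named members of each class. Each is 30 bases of GRCm38 (mm10) read 5′ to 3′ on the strand that carries the motif, with the motif in capitals. The motif was CAACGG or CAACTG, or the form of either that starts with T (TAACGG and TAACTG). It was searched on both strands within 50 bp of each summit. CAACTG also has the general form of an E-box (CANNTG), the site of basic helix-loop-helix factors.
Cars, 3′ UTR, chr7:143557390-143557419, plus strand: caccccacacagCAACGGtcctgctggcca
Pde6h, 3′ UTR, chr6:136964790-136964819, minus strand: acttgcattacaCAACTGcctttaaaaaac
Nsd3, 3′ UTR, chr8:25715382-25715411, minus strand: aagttaggaaatCAACTGaaaaagtctatt
Ccr2, 3′ UTR, chr9:124112965-124112994, plus strand: caagaatttcttCAACTGtgcttcttccaa
Mmp8, 3′ UTR, chr9:7567514-7567543, plus strand: caatttatggctTAACTGttcatagagttg
Akap5, coding sequence, chr12:76329159-76329188, minus strand: tctctgtgtggcCAACTGtagcttcctctg
N4bp3, coding sequence, chr11:51644407-51644436, minus strand: gagcgcaacctcCAACTGcagctgtttatg
Zfp853, coding sequence, chr5:143288991-143289020, minus strand: ctccaacagcagCAACTGctgcagcagcag
Gm10286, noncoding exon, chr8:94964893-94964922, plus strand: ttcctccccagcCAACGGctcgtgctggtg
Elf1, noncoding exon, chr14:79537750-79537779, plus strand: aggtgttctgcaTAACTGcctgtacactta
Neat1, noncoding exon, chr19:5840198-5840227, minus strand: ggctgctgaaggCAACTGtcacctgcctct

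The motif lay 1 base from the summit in Cars, 5 bases away in Nsd3 and 6 bases away in Mmp8. It covered the summit base in Neat1 and lay 31 bases away in Ccr2. In Zfp853 the motif stood in a run of CAG triplets, and in N4bp3 an E-box of the form CAGCTG followed it directly. Of 87 members with a motif outside chromosome 18, the one nearest to the summit was CAACTG in 43, TAACTG in 27, CAACGG in 9 and TAACGG in 8. In 3′ UTRs the motif lay on the strand of the host gene in 20 members and on the opposite strand in 26. The counts were 10 and 9 in coding sequence and 10 and 12 in noncoding exons.

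In coding sequence, 3′ UTRs and noncoding exons, the median fold enrichment was close to that of the rest of the list. Fold enrichment compares the pileup of Myb reads at the summit with the local level of the IgG library and was computed by the authors with MACS2 as a ratio. Its median was 4.44 over the 472 members (95% interval of the median, 4.23–4.60), with quartiles of 3.70 and 5.56. The median was 4.78 (4.23–4.97) in coding sequence, 4.32 (4.18–4.67) in 3′ UTRs and 4.44 (4.15–4.60) in noncoding exons. The introns of genes more than 3 kb from a start had a median of 4.47 (4.47–4.48) over 6163 peaks, and intergenic sequence had 4.63 (4.51–4.69) over 4313 peaks. The intervals of the exon classes overlapped each other and that of introns.

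A −log10 q-value of at least 2 was reached by 390 members (82.6%; 78.9%–85.9%), beside 85.1% of all peaks, and a value of at least 5 by 179 members (37.9%; 33.5%–42.5%), beside 43.1% of all peaks. The share was 41.5% in coding sequence, 36.8% in 3′ UTRs and 38.6% in noncoding exons. A fold enrichment of at least 8 was reached by 42 members (8.90%; 6.49%–11.8%), beside 9.89% of all peaks. It was reached by 13 of 94 members in coding sequence (13.8%; 7.57%–22.5%) and by 8 of 140 in noncoding exons (5.71%; 2.50%–10.9%). A q-value of at most 0.05 was held by 433 members (91.7%), beside 92.8% of all peaks. The other 39 members lay above this limit, which is the one given for peak calling in the methods of the study.

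**Figure D1:**
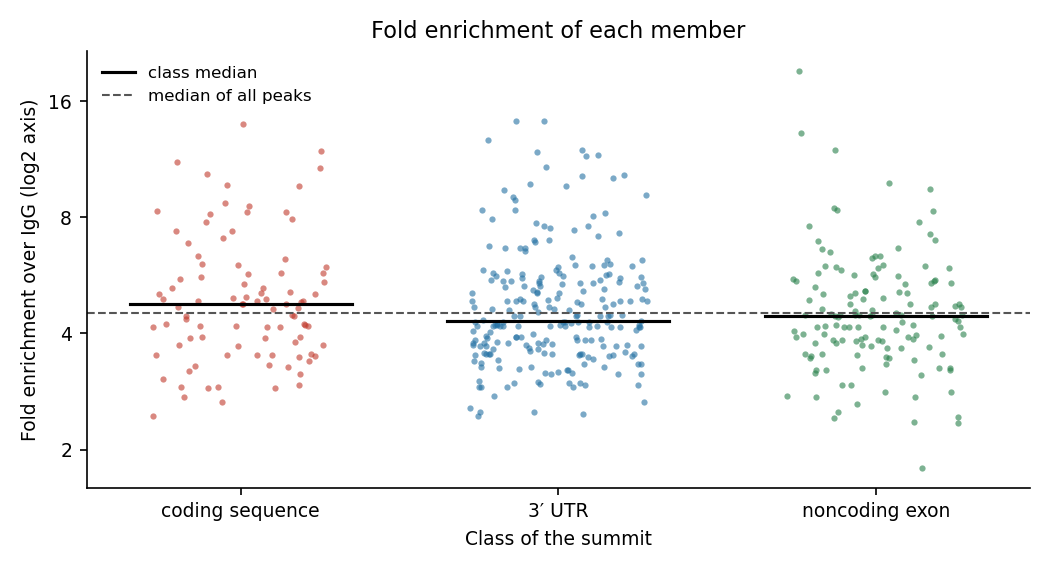
Fold enrichment over IgG on a log2 axis for each member (points) in coding sequence (94), 3′ UTRs (234) and noncoding exons (140), with class medians as black lines and the median of all 25793 peaks as a dashed line. The class medians of 4.78, 4.32 and 4.44 lie beside 4.51 for all peaks.

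The depth behind these values was modest. The number of Myb reads at each summit was recovered from the deposited fold enrichment and p-value, and its median over members was 17. The quartiles were 14 and 23, and members had between 8 and 73 reads. In 62.5% of the members there were fewer than 20 reads, against 56.1% of all peaks. The IgG background under a member, brought to the depth of the Myb library, had a median of 2.60 reads. Peaks in coding sequence had a median of 18 reads, those in 3′ UTRs 16 and those in noncoding exons 17. Differences in fold enrichment between members near the median were therefore not resolved.

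In coding sequence the highest fold enrichment was in Spen, a large RNA-binding corepressor of transcription. Its peak (chr4:141477283-141478108) lay in exon 12 of 16, an exon of 8020 bp, and had 54 reads (95% Poisson interval, 40.6–70.5) and a fold enrichment of 14.0. Akap5, an anchoring protein for protein kinase A, followed with 11.8 from 39 reads (27.7–53.3) in its last exon (chr12:76328638-76330027). Flt3, the receptor tyrosine kinase of early multipotent and lymphoid progenitors, had 11.1 from 42 reads (30.3–56.8) in exon 20 of 24 (chr5:147340124-147341856). Spen and Flt3 lay in CpG-rich sequence and had no Myb motif within 50 bp, whereas Akap5 had the motif printed above. The read intervals of the 3 genes overlapped.

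Atf2, a leucine zipper factor of the CREB group, had a fold enrichment of 10.7 from 33 reads in the coding part of its last exon. N4bp3, named for its binding to the ubiquitin ligase NEDD4, had 10.3 from 39 reads, and Fer1l6, a member of the ferlin family of membrane proteins, had 9.72 from 34 reads. Dbx1, a homeobox gene of the developing nervous system, had 9.63 from 30 reads, and Lims1, an adaptor of focal adhesions, had 8.72 from 33 reads. The 8 genes thus spanned reads from 30 to 54, and the interval of the lowest, 20.2–42.8 in Dbx1, overlapped that of Spen.

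In 3′ UTRs, Hist1h2be and Cars had the same values, with 53 reads (39.7–69.3) and a fold enrichment of 14.2. Hist1h2be encodes a core histone H2B, and its peak (chr13:23578974-23587040) was 8067 bp wide, the widest of all members. The summit lay in an exon of a GENCODE transcript that began 35833 bp away, and was CpG-rich. RefSeq places a start of the histone gene H2bc6 at 679 bp from it, so in that annotation it would not count as distant from starts. Cars encodes the cysteinyl-tRNA synthetase, and its peak (chr7:143556925-143558103) lay in the last of 23 exons.

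Pde6h, the inhibitory subunit of the cone phosphodiesterase of the retina, had a fold enrichment of 12.6 from 48 reads (35.4–63.6). Sp9, a zinc finger factor of forebrain neurons, had 12.0 from 37 reads, and Cntnap1, a protein of the junction between axon and glia, had 11.8 from 47 reads. Kif5c, a kinesin motor of neurons, had 11.6 from 44 reads. In Cntnap1 the nearest start was not its own but that of Ezh1, which encodes a histone H3K27 methyltransferase. In Kif5c it was that of Lypd6b. Trib1, a pseudokinase that promotes the breakdown of C/EBPα, had 11.5 from 51 reads (38.0–67.1), and Traip, a ubiquitin ligase of DNA replication, had 10.8 from 45 reads, with the start of Uba7 as its nearest.

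In noncoding exons, Gm20342 had the highest fold enrichment of all 472 members, 19.2 from 63 reads (48.4–80.6). This gene of a long intergenic noncoding RNA has 1 exon of 9720 bp and held 2 other members of 4.15 and 2.51. Gm10286 had the most reads of all members, 73 (57.2–91.8), with a fold enrichment of 13.2 over a higher background. The next were 1700026D11Rik at 11.9 from 45 reads, 1700020I14Rik at 9.82 from 37 reads and 5430401H09Rik at 9.47 from 29 reads. They were followed by A630001O12Rik at 8.46 from 44 reads, 4833427F10Rik at 8.36 from 35 reads and 4930428O21Rik at 8.28 from 31 reads. All 8 were genes of long noncoding RNAs or TEC genes, which are loci still to be verified experimentally, and their functions are not described here. Of the 140 members in noncoding exons, 68 lay in such genes, 69 in noncoding transcripts of protein-coding genes and 3 in pseudogenes.

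**Figure D2:**
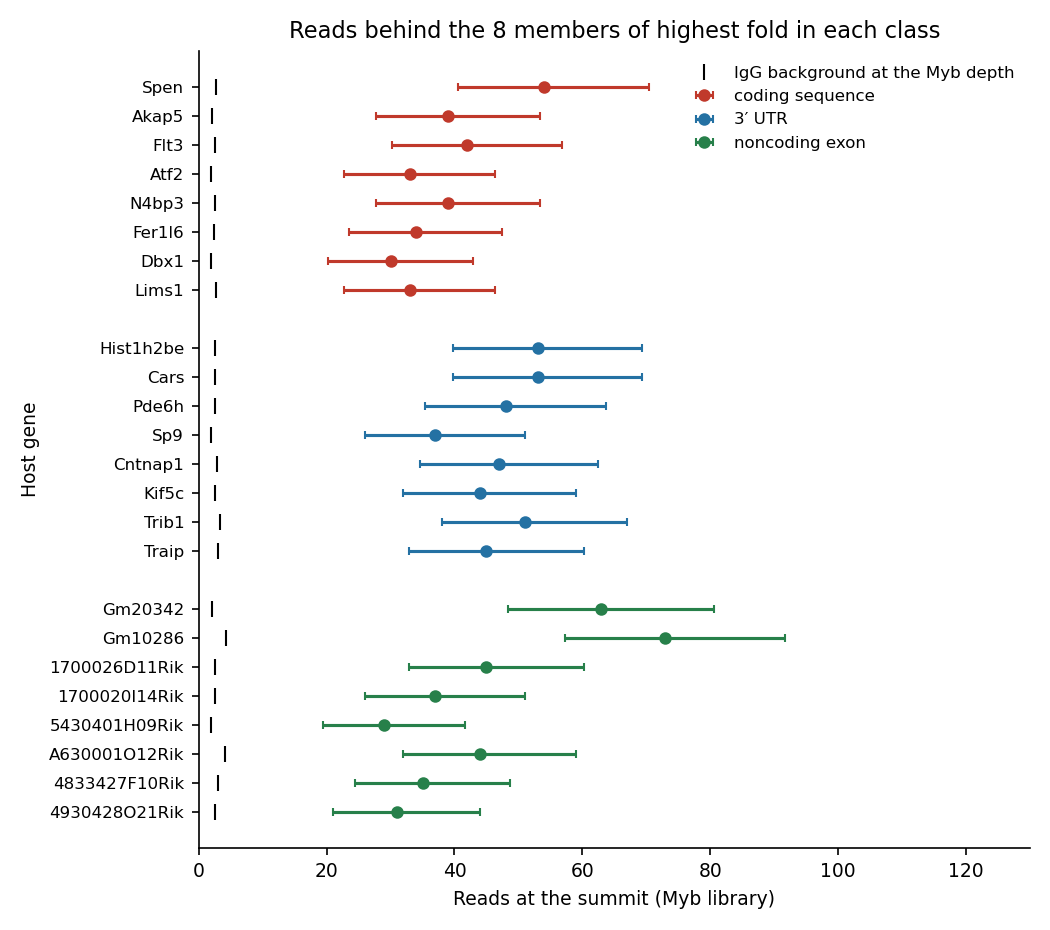
Myb reads at the summit (points, with exact Poisson 95% intervals) for the 8 members of highest fold enrichment in coding sequence, 3′ UTRs and noncoding exons, beside the local IgG background brought to the Myb depth (black ticks). Reads ran from 29 in 5430401H09Rik to 73 in Gm10286. These members were picked for high fold enrichment over this background, so intervals above it follow from the choice.

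How often a class was hit depends on how much sequence it offers. More than 3 kb from every start, coding sequence covered 18.2 Mb, 3′ UTRs 23.7 Mb, noncoding exons 14.2 Mb, introns 881 Mb and intergenic sequence 1299 Mb of sequenced bases. Summits occurred at 5.15 per Mb in coding sequence (4.16–6.31), 9.89 per Mb in 3′ UTRs (8.66–11.2) and 9.83 per Mb in noncoding exons (8.27–11.6). Introns had 6.99 per Mb (6.82–7.17) and intergenic sequence 3.32 per Mb (3.22–3.42). Relative to introns, the density was 0.737 in coding sequence (0.595–0.903), 1.41 in 3′ UTRs (1.24–1.61) and 1.41 in noncoding exons (1.18–1.66). None of these 3 intervals of the ratio to introns held 1.

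The excess in 3′ UTRs and noncoding exons was smaller when introns at the same distance from a start were used. Summit density was higher close to starts. In introns it was 12.7 per Mb at 3 to 5 kb, 7.72 per Mb at 10 to 20 kb and 2.03 per Mb beyond 50 kb. In 3′ UTRs it was 15.6 per Mb (12.5–19.4) at 3 to 5 kb, 11.0 per Mb (8.75–13.6) at 5 to 10 kb and 7.09 per Mb (5.06–9.65) at 10 to 20 kb. When the intron rate of each of 5 distance bands was applied to the bases of 3′ UTRs, 210 summits were expected and 234 were observed, a ratio of 1.11 (0.976–1.27). For noncoding exons the ratio was 1.07 (0.897–1.26). Both intervals held 1, so no excess over introns was resolved at matched distance.

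The deficit in coding sequence was present at matched distance. Coding sequence had 6.16 summits per Mb (3.99–9.10) at 3 to 5 kb from a start, 0.484 of the intron density there (0.312–0.718). At 5 to 10 kb it had 5.51 per Mb (3.74–7.82), 0.544 of the intron density (0.369–0.775). Over all bands, 94 summits were observed in coding sequence and 160 were expected from the intron rates, a ratio of 0.587 (0.475–0.719). Beyond 10 kb the intervals of the ratio in single bands held 1, with 25, 10 and 3 summits in coding sequence.

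**Figure D3:**
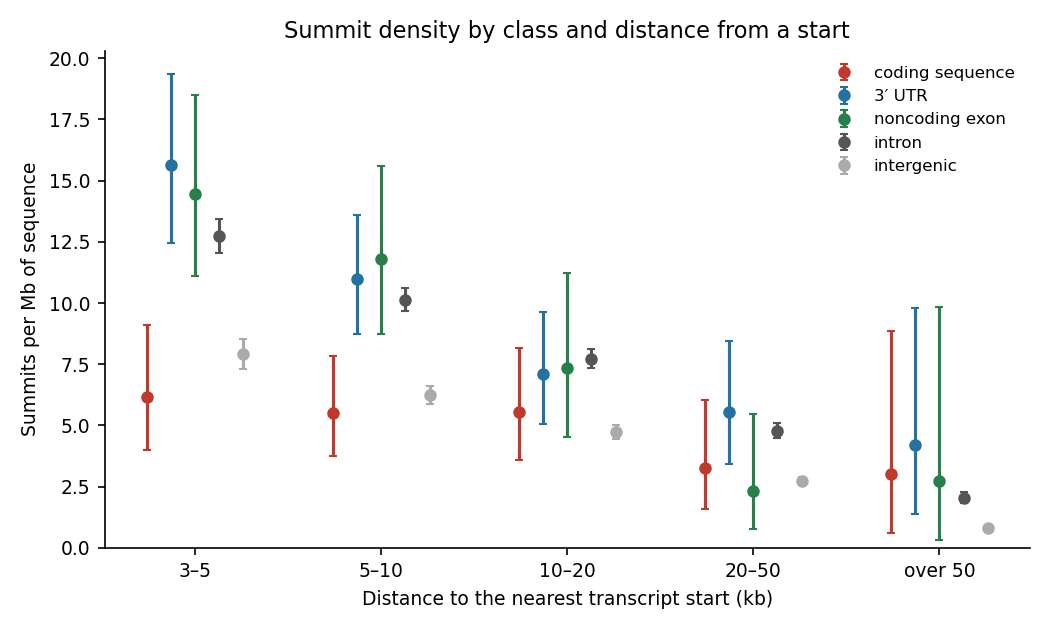
Summits per Mb of sequenced bases (points, with exact Poisson 95% intervals) for coding sequence, 3′ UTRs, noncoding exons, introns and intergenic sequence in 5 bands of distance to the nearest transcript start. Coding sequence lies below introns at 3 to 5 kb (6.16 against 12.7 per Mb) and at 5 to 10 kb (5.51 against 10.1 per Mb), whereas the intervals of 3′ UTRs and noncoding exons overlap those of introns in each band.

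Repeats entered this comparison as well. Soft-masked repeats covered 4.94% of the coding windows, 19.2% of the 3′ UTR windows and 30.7% of the intron windows examined on a fixed grid. With summits and bases in repeats left out, the density relative to introns was 0.607 in coding sequence (0.489–0.746), 1.22 in 3′ UTRs (1.06–1.41) and 1.30 in noncoding exons (1.08–1.55). For all exons together it was 1.02 (0.919–1.12). Distance from a start was not matched in these ratios. The part of read mappability in these densities was not tested.

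Within 3′ UTRs, the density was highest close to the transcript end. It was 12.3 per Mb (9.95–15.0) in the last 500 bp, with 97 summits, and 8.93 per Mb (6.44–12.1) in the 500 bp before that. From 1 to 2 kb before the end it was 9.45 per Mb, from 2 to 4 kb 8.12 per Mb, and beyond 4 kb 7.19 per Mb (3.93–12.1). The intervals of neighboring bins overlapped. Summits in 3′ UTRs had a median distance of 838 bp to the transcript end, and 228 of 234 (97.4%) lay in the last exon.

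Summits were frequent past the end of the gene as well. Around the ends of protein-coding genes, with sequence within 3 kb of any start left out, the last 500 bp before the end had 12.1 summits per Mb (9.59–15.1) and the first 500 bp after it had 9.30 per Mb (7.14–11.9). At 1.5 to 2 kb downstream it was 12.9 per Mb (10.5–15.8), and at 4.5 to 5 kb downstream 10.2 per Mb (7.99–12.8). From 500 bp to 5 kb upstream of the end, inside the gene, the bins ran from 5.24 to 9.61 per Mb. Each downstream bin was above the intergenic mean of 3.32 per Mb. Downstream sequence included exons and introns of neighboring genes, and bases near the ends of several genes were counted for each.

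**Figure D4:**
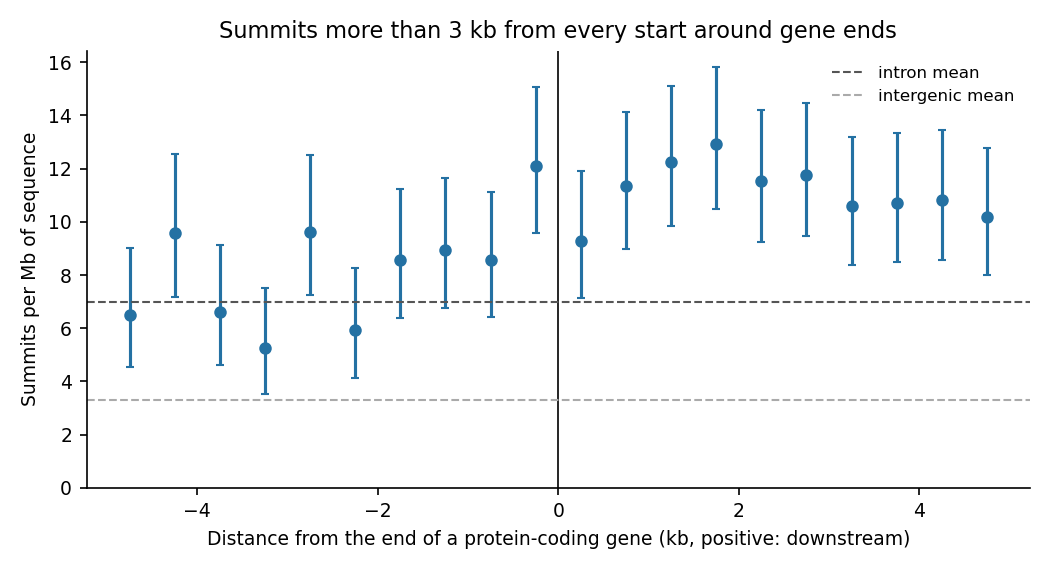
Summits per Mb of sequenced bases more than 3 kb from every start (points, with exact Poisson 95% intervals) in 500-bp bins around the ends of protein-coding genes, with the means of introns and intergenic sequence as dashed lines. The bin that ends at the gene end has 12.1 per Mb, and the 10 bins downstream run from 9.30 to 12.9 per Mb. The dashed means cover all distances beyond 3 kb from a start and are not matched to the bins by distance.

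Members occurred in genes whose own start also had a Myb peak more often than in other genes. The 472 members lay in 430 host genes, of which 366 were protein-coding, or 1.67% of all 21938 protein-coding genes. Of these 366 hosts, 265 (72.4%; 67.5%–76.9%) had a Myb summit within 3 kb of one of their starts, beside 39.9% of all protein-coding genes. The share was 69.3% (67.5%–71.0%) among the 2709 protein-coding genes with an intronic summit more than 3 kb from a start, so the hosts of exonic and intronic peaks had overlapping intervals. By class, it was 58.1% (47.4%–68.2%) for coding sequence, 74.4% (68.1%–80.1%) for 3′ UTRs and 85.9% (74.98%–93.4%) for protein-coding hosts of noncoding exons. An intronic summit of this kind was also present in 146 of the 366 hosts (39.9%; 34.8%–45.1%), beside 12.3% of all protein-coding genes. Long genes offer more bases to both kinds of peak, and gene length was not adjusted for in these shares.

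Densities per base were also compared by whether the gene had a summit near a start. In 3′ UTRs of genes with a summit near a start it was 15.9 per Mb (13.7–18.5), and in those of other genes 4.65 per Mb (3.54–6.001), a ratio of 3.43 (2.54–4.68). In coding sequence the densities were 7.20 per Mb (5.42–9.37) and 3.68 per Mb (2.62–5.03), a ratio of 1.96 (1.27–3.03). In introns of protein-coding genes they were 15.9 per Mb (15.4–16.3) and 2.57 per Mb (2.43–2.72), a ratio of 6.18 (5.80–6.59). The ratio was thus smaller in 3′ UTRs than in introns, and smallest in coding sequence among these 3, with an interval that overlapped that of 3′ UTRs. Neither distance to a start nor gene length was adjusted for in these ratios.

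The start nearest to a member was often not a start of its host. It belonged to the host in 292 of 472 members (61.9%; 57.3%–66.3%), and in 122 of 234 members in 3′ UTRs (52.1%; 45.5%–58.7%). The share was 66% (55.5%–75.4%) in coding sequence and 75% (67.0%–81.9%) in noncoding exons. The median distance to the nearest start was 6399 bp over all members. RefSeq starts were at hand for 459 members, those outside chromosome 18, and 11 of them lay within 3 kb of one, among them Hist1h2be, Aldh3b1, Xpc (in both of its members) and Lmo2. Of these genes, Aldh3b1 and Lmo2 fall outside the rule for named genes and were named after their values had been seen.

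Coding exons are short, and this was visible in the peaks. The exon under a summit in coding sequence had a median length of 177 bp, whereas the peaks there had a median width of 525 bp. A median of 47.3% of the bases of these peaks were exonic, and the remainder was mostly intron. In 3′ UTRs the exon had a median length of 2712 bp, and 223 of 234 peaks (95.3%) had at least 50% of their bases in exons, beside 44 of 94 (46.8%) in coding sequence. A summit assigned to coding sequence is therefore placed less surely than one in a 3′ UTR, since a summit moved by the length of such an exon would leave it. In 17 members the summit was in coding sequence of 1 transcript and in the 3′ UTR of another, and these were counted as coding.

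A Myb motif lay within 50 bp of the summit in 88 of 472 members (18.6%; 15.2%–22.5%), beside 16.7% of all peaks. Windows of the same size centered 500 bp to either side of the same summits held it in 11.0% (9.09%–13.2%), so the share at summits was 1.69 times that in the flanks (1.26–2.27). In 3′ UTRs the share was 20.1% at summits and 10.04% in flanks, a ratio of 2.00 (1.31–3.06). In coding sequence it was 20.2% and 10.1%, a ratio of 2.00 (1.00–3.99), with a lower bound that only just cleared 1. In noncoding exons it was 15.7% and 12.9%, a ratio of 1.22 (0.685–2.13). These calls depended on the form of the motif. With the shorter forms AACNG, and AACGG or AACTG, the ratios in noncoding exons were 1.48 (1.11–1.96) and 1.70 (1.17–2.46), whereas the intervals in coding sequence and 3′ UTRs then held 1. Over 15 other settings, the interval held 1 in 9 for coding sequence, in 3 for 3′ UTRs and in 13 for noncoding exons, and in 0 for all members together. Introns had a ratio of 1.75 (1.62–1.89) and intergenic sequence 1.83, both inside the intervals of all 3 exon classes.

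The flanks were close to the level of each class as a whole. On a fixed grid over all sequence more than 3 kb from a start, the motif was within 50 bp of 10.7% of positions in coding sequence, 11.4% in 3′ UTRs and 11.3% in noncoding exons. The lower bound of the share at summits was 15.1% in 3′ UTRs, 12.6% in coding sequence and 10.1% in noncoding exons. Only in noncoding exons was it below the share on the grid. Most members, 384 of 472, had no motif of these letters near the summit, which says nothing of whether Myb bound there in another way.

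**Figure D5:**
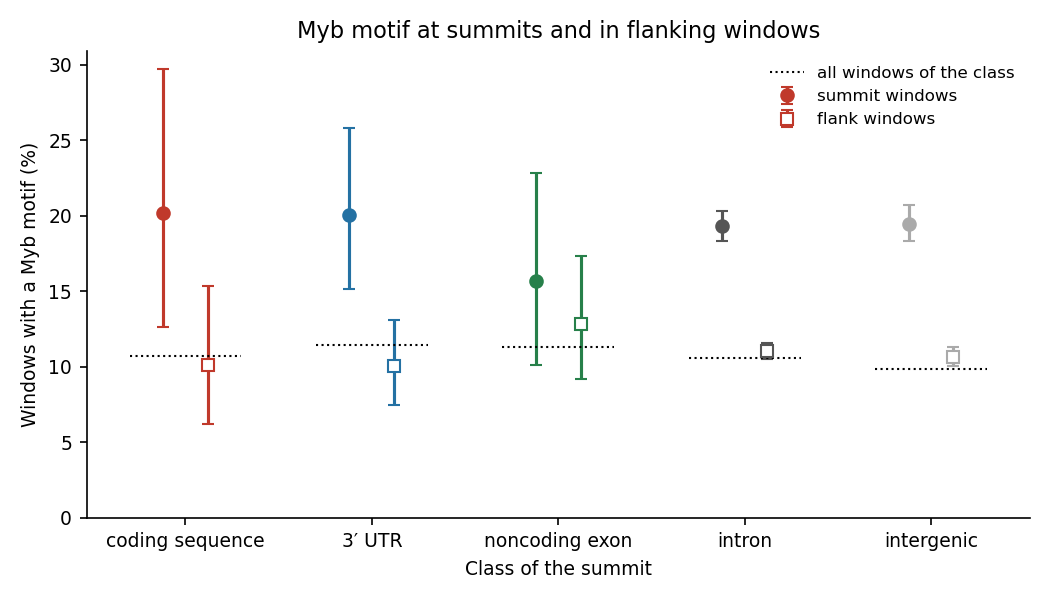
Share of windows within 50 bp that hold a Myb motif, at summits (filled circles) and in windows centered 500 bp to either side (open squares), with exact 95% intervals, and the share over all windows of the class on a fixed grid (dotted lines). Summits in coding sequence and 3′ UTRs stand at 20.2% and 20.1% against flanks of 10.1% and 10.04%, whereas noncoding exons stand at 15.7% against 12.9%.

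Motifs of other blood factors were more frequent at the summits of members as well. GATA motifs (AGATAA or TGATAA) were in 17.8% of summit windows and 10.5% of flank windows, a ratio of 1.70 (1.25–2.29). The ratio was 1.68 (1.11–2.52) for ETS motifs (GGAAGT), 1.59 (1.11–2.28) for RUNX motifs (TGTGGT or TGCGGT) and 1.89 (1.16–3.09) for C/EBP motifs (TTGCNNAA). For the E-box forms CAGATG and CAGCTG it was 1.34 (1.01–1.77). The AP-1 motif (TGANTCA) was in 11 of 472 summit windows and 34 of 944 flank windows, a ratio of 0.647 (0.296–1.31) that held 1. The same motifs in introns had ratios of 1.79 for GATA, 1.89 for ETS, 1.74 for RUNX and 1.87 for C/EBP, inside the intervals of the members. In 3′ UTRs, the IRF motif of interferon regulatory factors was in 9 of 234 summit windows and 4 of 468 flank windows. This ratio of 4.50 (1.26–20.0) rests on few sites. Over all members the IRF ratio was 2.15 (0.939–4.98), an interval that held 1. It was 0.667 in coding sequence, 1.33 in noncoding exons and 1.13 in introns, also with intervals that held 1. The CTCF motif was in 4 of 472 summit windows and 2 of 944 flank windows. The interval of this ratio, 0.573–44.2, held 1. The GC-box of SP and KLF factors (GGGCGGG) was in 2 summit windows and 13 flank windows. Its ratio was 0.308 (0.0337–1.36), with an interval that also held 1. All motifs were searched on both strands, and 10 motifs were compared, over all members and within each class, without adjustment of the intervals.

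CpG-rich sequence, defined as at least 50% GC and a ratio of observed to expected CpG of at least 0.6 in the 201 bp around the summit, is typical of promoters. It was present at 32 members (6.78%; 4.68%–9.44%), beside 20.7% of all peaks. Of the peaks more than 3 kb from a start, 0.990% of intronic and 3.50% of intergenic ones were CpG-rich. In coding sequence 18 of 94 summits were CpG-rich (19.1%; 11.8%–28.6%), beside 5.63% of coding positions on the grid and 3.72% of windows centered 1 kb to either side of the same summits. In 3′ UTRs there were 5 of 234 (2.14%; 0.697%–4.92%), beside 0.673% of positions on the grid and 2.56% of the windows at 1 kb. In noncoding exons there were 9 of 140 (6.43%; 2.98%–11.9%), beside 0.660% of positions on the grid and 1.43% of such windows. The members in coding sequence of Spen, Flt3, N4bp3 and Dbx1 were of this kind, as was that of Zfp771. Of the 30 CpG-rich members outside chromosome 18, 1 (Hist1h2be) lay within 3 kb of a start in RefSeq.

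Among genes of blood transcription factors, 11 of 106 held a member (10.4%; 5.30%–17.8%), beside 1.67% of all protein-coding genes. In this list 86.8% of the genes had a summit near a start, beside 39.9% of all. Sox4, an HMG-box factor of progenitors, had a fold enrichment of 9.78 from 30 reads in its 3′ UTR. Klf6, a zinc finger factor, had 7.90 from 24 reads at 79 bp from its transcript end. Lyl1, a helix-loop-helix relative of Tal1, had 6.66 from 42 reads at 149 bp from its end. All 3 summits lay in the last exon, between 3109 and 5637 bp from the nearest start, which was their own.

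Elf1, an ETS factor, had a fold enrichment of 5.64 from 28 reads in a noncoding transcript, with a TAACTG motif 9 bases from the summit. Fosb and Fosl2, subunits of AP-1, had 5.54 from 25 reads in coding sequence and 4.18 from 15 reads in a retained-intron transcript. Stat5b, a signal transducer of cytokine receptors, had 4.97 from 16 reads in coding exon 3 of 19. Ikzf1, the Ikaros factor of lymphoid development, had 3.56 from 12 reads in its 3′ UTR, at a −log10 q-value of 2.08. The members in Erg, Lmo2 and Myb itself had −log10 q-values of 0.763, 1.63 and 1.95. They fall outside the rule for named genes and were added after their values had been seen. In Myb the summit lay in the last exon of a retained-intron transcript, with 12 reads (6.201–20.96) and a TAACGG motif 22 bases away.

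Of 84 genes of cytokine receptors and signaling, 4 held a member (4.76%; 1.31%–11.7%), beside 1.67% of all protein-coding genes, and 73.8% had a summit near a start. Flt3 held a second one in a noncoding transcript with a fold enrichment of 5.14 from 21 reads. Ccr2, the chemokine receptor of monocytes, had 6.03 from 18 reads in its 3′ UTR. Tgfbr2, a receptor of TGF-β, had 5.56 from 20 reads in its 3′ UTR, and Ptprc, the phosphatase CD45, had 5.09 from 15 reads in a retained-intron transcript. Of 80 chromatin regulators, 3 held a member (3.75%; 0.780%–10.6%), namely Nsd3, an H3K36 methyltransferase, with 7.17 from 26 reads, Setd1b, an H3K4 methyltransferase, with 6.92 from 27 reads, and Bcor, a corepressor of a Polycomb complex, with 3.67 from 13 reads. Of these, Nsd3 lay in a 3′ UTR and had a motif at 5 bases. A summit near a start was present in 91.2% of the chromatin regulators. The intervals of both lists held the share of all protein-coding genes and overlapped that of the transcription factors.

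Lists of genes of mature blood cells were examined in the same way. Of 42 genes of granulocytes and monocytes, 1 held a member (2.38%; 0.0603%–12.6%), Mmp8, a collagenase of neutrophils, with a fold enrichment of 4.67 from 14 reads in its 3′ UTR and a motif at 6 bases. None of 42 lymphoid genes and none of 41 erythroid and megakaryocyte genes held one, which at 95% confidence allows shares of up to 8.41% and 8.60%. A summit near a start was present in 47.6% of the granulocyte and monocyte genes, 26.2% of the lymphoid genes and 73.2% of the erythroid and megakaryocyte genes. With 1.67% of all protein-coding genes holding a member, counts of 0 or 1 in lists of this size are near the share of all genes.

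Of 102 ribosomal protein genes, 0 held a member, which allows a share of up to 3.55% and is not resolved from the 1.67% of all protein-coding genes, and 85.3% had a summit near a start. Many ribosomal protein genes are short, and how many of their exonic bases lie more than 3 kb from a start was not counted. None of 68 protocadherin genes held a member (up to 5.28%), and 1.47% had a summit near a start. Of 438 zinc finger genes of the Zfp and Zbtb names, 7 held a member (1.60%; 0.645%–3.27%), close to the 1.67% of all protein-coding genes. Their coding members were in Zfp853 at 7.09, Zfp771 at 6.87, Zfp217 at 4.37 and Zfp207 at 4.18 and 4.15. Zfp608 had 3.84 in a 3′ UTR and Zfp385b 3.12 in a noncoding exon. Of 67 histone genes, 2 held a member (2.99%; 0.364%–10.4%), an interval that held the 1.67% of all protein-coding genes, and 85.1% had a summit near a start. They were Hist1h2be and Hist1h2bc, the second with 4.06 from 12 reads.

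Most hosts held 1 member. Of 430 hosts, 394 held 1, 32 held 2, 3 held 3 and 1 held 5, and the 36 hosts with more than 1 held 78 members. Ube2d3, a ubiquitin-conjugating enzyme, held 5 members within 5824 bp, all in 1 retained-intron transcript of 1 exon. Their fold enrichments ran from 3.84 to 4.78 and their reads from 11 to 14, all below the median of 17 reads over members. Dnaja1, a cochaperone of Hsp70, held 3 members of 3.15 to 3.92, and Parvb, an adaptor of focal adhesions, held 3 of 2.97 to 6.19. Neighboring summits of 1 host are not independent.

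The members of hosts with 2 are given here by their fold enrichment. Cdkn1b, the cell cycle inhibitor p27, had 4.17 and 4.03 in its 3′ UTR, 919 bp apart. Ncl, the nucleolar protein nucleolin, had 5.56 and 4.18, and Hnrnpa1, a splicing factor, had 4.29 and 2.45. Scd1, a fatty acid desaturase, had 9.05 and 3.52, and Pde6h had 12.6 and 3.51. Kdr, the VEGF receptor of endothelium, had 4.18 and 2.82, 28796 bp apart. The other hosts with 2 members were Armc9, Bzw1, Fkbp9, Gm14636, Herc1, Il17ra, Mns1, Nxnl1, Ppp4r1l-ps, Ptpre, Pura, Rab14, Rdh13, Rgs1, Shox2, Sp8, Sub1, Trim59, Xpc, Yaf2 and Zfand5, besides Flt3, Zfp207, 1700020I14Rik, 4833427F10Rik and Neat1 described here. Their fold enrichments lay between 2.34 in Herc1 and 7.59 in Gm14636.

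Neat1, the long noncoding RNA that scaffolds paraspeckles, stood apart by its background. Its 2 members had 56 reads (42.3–72.7) and 60 reads (45.8–77.2), among the highest of all members. The IgG background there, brought to the depth of the Myb library, was 30.7 and 24.1 reads, the highest of all 25793 peaks. The fold enrichments were accordingly 1.79 and 2.42, and 1.79 was the lowest of the list. The part of IgG signal in these peaks was not tested further, and 1 control library was used.

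The values on either side of the 3-kb limit were as follows. Exonic summits at 2 to 3 kb from a start, just inside the limit, numbered 176 and had a median fold enrichment of 4.37 from a median of 15 reads. Those at 3 to 4 kb, just outside it, numbered 110 and had 4.25 from 16 reads. The Myb motif was at 19.9% and 14.5% of them, and CpG-rich sequence at 5.68% and 11.8%.

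Another summit lay within 5 kb of 207 members (43.9%; 39.3%–48.5%), beside 55.5% of all peaks and 46.3% of intronic peaks more than 3 kb from a start. The share was 29.8% (20.8%–40.1%) in coding sequence, 46.2% (39.6%–52.8%) in 3′ UTRs and 49.3% (40.7%–57.9%) in noncoding exons. The share was thus lower in coding sequence than in noncoding exons, with intervals that narrowly missed each other. These intervals treat peaks as independent, although neighboring members of 1 host count for each other. The classes also differed in their median distance to the nearest start, 8170.5 bp in coding sequence and 5349.5 bp in noncoding exons, and this was not adjusted for. The median distance to the next summit was 12910 bp in coding sequence and 5859 bp in 3′ UTRs.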

How the data were processed

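Per the labels and the study's methods, the authors used cutadapt 1.15 for trimming, BWA 0.7.13 for alignment to mm10 and Picard against duplicates, filtered on mapping quality and a blacklist, and called narrow peaks with MACS2 2.1.1.20160309 against the IgG library, keeping peaks shared by pseudo-replicates of 1 library. The deposited fold enrichment is a ratio, (pileup + 1)/(background + 1). The p-value and q-value were deposited as −log10 values, and the deposited score (10 times the −log10 p) was not used. The IgG library entered only as that background. Total depth is not in the list.

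Summits were assigned to GENCODE vM21 in the order coding sequence, 3′ UTR, 5′ UTR, other exon, intron and intergenic, and the host was the gene of that feature. Sequence came from RefSeq's GRCm38 assembly. Reads were recovered with a scale of 0.769, which brings the Myb pileup to the depth of IgG. This gave whole reads, within 0.01, in 100% of the rows, and 2.00% of the rows allowed more than 1 number. Shares have exact (Clopper-Pearson) 95% intervals, densities and reads exact Poisson intervals, ratios of counts conditional binomial intervals, and medians order-statistic intervals. Windows overlap and neighboring peaks are not independent, so these intervals cover counting error only. No p-value was computed, since peaks are not replicates. The Python tools were pandas 2.3.3, scipy 1.17.1 and pysam 0.24.0. The recovery of reads, the motif search and the interval of ratios were tested on simulated data. Assignment to classes was tested on random positions of the annotation, and the other steps had no such test.

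The members and gene lists were chosen with earlier results of these data known. Named were the 8 members of highest fold enrichment in each class, each host with 2 or more members, and each list gene with a member of −log10 q at least 2. Sequences are shown for some of these with a motif, and none from chromosome 18.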

Additional observations from a re-analysis of the deposited data

How the results depend on the processing

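Of the values computed under other settings, 109 stayed inside the interval of the value reported (counts within 1.5 times) and 30 did not. No motif or density ratio with an interval that excluded 1 crossed to the other side of 1. Direction was not judged for shares and counts. The largest class changed from 3′ UTRs to noncoding exons with a start window of 1 kb and with protein-coding starts alone. At a −log10 q of at least 5 there were 179 members, with a median fold enrichment of 0.942 of that of introns, 10.1% CpG-rich and 51.7% of hosts with a summit near a start beside 24.3% of all protein-coding genes (37.0% at a −log10 q of at least 2, and 35.8% with a 1-kb window around host starts). A start window of 1 kb gave 1005 members, 36.3% in 3′ UTRs, 42.4% in noncoding exons and 83.2% of hosts with a summit near a start, and a window of 5 kb gave 298. With protein-coding starts alone there were 824 members, 13.2% in coding sequence, 31.2% in 3′ UTRs, 55.1% in noncoding exons and 9.47% CpG-rich. Basic transcripts gave 57.9% in 3′ UTRs and 17.7% in noncoding exons. With at least 50% of the peak in exons the shares were 11.0% in coding sequence and 57.6% in 3′ UTRs, and with 3′ UTRs ranked first coding sequence had 16.3%. In 3′ UTRs the motif ratio was 1.145 for AACNG and 1.27 for AACGG or AACTG, and 1.47 (0.986–2.17) with flanks at 1 kb, and these intervals held 1. In noncoding exons the ratio was 1.48 and 1.70 for these 2 forms, with intervals above 1. In coding sequence the interval held 1 in 9 of 15 settings: at a −log10 q of at least 5 (0.747–5.35), with a 5-kb start window (0.939–4.98), at least 50% of the peak in exons (0.822–4.87), motif windows of 25 bp (0.852–8.12) and 100 bp (0.938–2.54), exonic flanks (0.907–11.0), and for AACNG (0.934–1.83), AACNG after C or T (0.893–2.35) and AACGG or AACTG (0.936–2.26). Stricter CpG limits (0.75 and 55% GC) gave 3.39%. Comparisons chosen after seeing the data gave densities relative to introns, outside repeats, of 1.22 in 3′ UTRs and 1.02 in exons together, and at matched distance from a start of 0.587 in coding sequence, 1.11 in 3′ UTRs and 1.07 in noncoding exons. No paired analysis was possible because there was 1 library in each group and no test between groups. With 1 library, variation between mice is unknown, and most members rest on fewer than 20 reads.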
